A study of Mus musculus with 2 samples.

Results

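The retinoic acid receptor-related orphan receptor (ROR) genes *Rora* and *Rorb* were examined for peaks of the homeodomain factor DLX2 in the embryonic upper jaw. The members were all CUT&Tag peaks that lay inside either gene or within 100 kb of it in the mouse build mm10 (GRCm38). There were 12 such peaks of 28061 in replicate 1 and 44 of 62093 in replicate 2. Of these, *Rora* had 10 in replicate 1 and 38 in replicate 2, and *Rorb* had 2 and 6.

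The libraries were both from cells of the maxillary process of wildtype C57BL/6 embryos at E12.5, with no transgene, deletion or treatment named for them. The maxillary process is the outgrowth of the face that forms most of the upper jaw. In CUT&Tag, an antibody, here against DLX2, directs a transposase to the sites its target occupies. The cells came from dissected tissue, and the number of embryos behind each library is not given in the sources used here. No control library or second genotype was used, so a peak is a place of high signal over its own library and is not shown to depend on DLX2. The files hold no expression values, so the labelled tissue could not be checked against marker genes.

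RORs are nuclear receptors that bind DNA mostly as monomers, at a short site preceded by an A and T rich stretch. They activate transcription and compete for the same element with the repressors NR1D1 and NR1D2, and this competition tunes the circadian clock. *Rora* is best known for Purkinje cell survival in the cerebellum, and is also used in innate lymphoid cells and in bone and cartilage cells. *Rorb* works in the retina, the cerebral cortex and the spinal cord.

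*Rora* (gene ID 19883) spans 734.8 kb of chromosome 9, at chr9:68653404-69388246 on the plus strand. *Rorb* (gene ID 225998) spans 180.6 kb of chromosome 19, at chr19:18930609-19111196 on the minus strand. The annotation used gives the extents of genes but not their exons, so a peak inside a gene was not classed as exonic, intronic or in a UTR. The 250 bases before each start site in the RefSeq promoter set used (GRCm38.p6) are shown, as stretches where a promoter peak would lie. Neither replicate had a peak there. The set held 1 start for *Rora*, at base 68653786 inside the gene extent, so any other *Rora* start was not examined. They are written 5′ to 3′ on the strand of the gene. Capitals mark the homeodomain core TAATT, searched on both strands.

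*Rora*, chr9:68653536-68653785, plus strand: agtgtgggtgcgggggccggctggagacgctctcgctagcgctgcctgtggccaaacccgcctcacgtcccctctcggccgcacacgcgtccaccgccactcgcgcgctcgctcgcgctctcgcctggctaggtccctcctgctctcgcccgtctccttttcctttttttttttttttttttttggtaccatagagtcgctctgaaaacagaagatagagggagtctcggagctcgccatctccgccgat

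*Rorb*, upstream start, chr19:19111197-19111446, minus strand: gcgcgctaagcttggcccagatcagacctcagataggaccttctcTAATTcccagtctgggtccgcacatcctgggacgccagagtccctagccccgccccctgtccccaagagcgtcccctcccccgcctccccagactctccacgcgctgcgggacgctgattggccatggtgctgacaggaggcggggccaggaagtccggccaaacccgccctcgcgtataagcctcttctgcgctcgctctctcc

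*Rorb*, internal start, chr19:19001118-19001367, minus strand: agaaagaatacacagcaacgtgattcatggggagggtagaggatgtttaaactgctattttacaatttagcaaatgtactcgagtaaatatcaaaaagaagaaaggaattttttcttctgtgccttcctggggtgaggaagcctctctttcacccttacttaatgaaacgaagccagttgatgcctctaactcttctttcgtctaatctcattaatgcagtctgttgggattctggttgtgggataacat

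The core TAATT was found in 1 of these 3 stretches, the upstream *Rorb* start, at position -205 counted back from the start site. Of 32851 annotated stretches of the same length, 25.03% held it. Neither the core AGGTCA of RORs and other nuclear receptors (14.02% of all stretches), nor TGTGGT of RUNX factors (14.05%), nor the E-box CACGTG of MNT, MYC and MAX (6.02%) occurred in any of the 3. The TAATT at -205 was thus the only match of any of these motifs in the stretches. The *Rora* stretch had 61.2% G and C and lay within the lncRNA gene *Gm31325*. The *Rorb* stretches had 66.0% at the upstream start and 39.2% at the internal start.

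The peaks nearest to these start sites were at least 22.7 kb away. For *Rora*, the nearest replicate 1 peak lay 37.0 kb downstream with a fold enrichment of 4.33, and the nearest replicate 2 peak lay 22.7 kb upstream with a fold of 3.81. Fold enrichment is the signal at the summit of the peak over the local background of the same library. For the upstream *Rorb* start, the nearest peaks were 206 kb downstream in replicate 1 and 39.2 kb upstream in replicate 2. For the internal *Rorb* start they were 96.2 kb and 23.0 kb downstream. A start without a peak was the usual case: a peak met the 250 bases before 0.679% of all starts in that set in replicate 1 and 2.402% in replicate 2.

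Within *Rora*, 2 regions were covered by a peak of each replicate, and both lay in the distal part of the gene. The stronger one, at chr9:69099604-69100201, lay 446 kb from the upstream end, 60.8% of the way along the gene. Its fold was 11.03 in replicate 1 and 9.34 in replicate 2, a mean of 10.18 ± 1.20 (SD, n = 2). The −log10 q, the peak caller's measure of confidence after its correction over all sites, was 17.2 in replicate 1 and 21.1 in replicate 2. The summits were 31 bp apart. Both libraries thus placed their highest *Rora* peak at the same spot.

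Depth behind this region was well above that of most peaks. The number of fragments at the summit, inferred from the deposited fold and p, was 24 over a background of 1.27 in replicate 1 and 35 over 2.86 in replicate 2. The list medians were 6 and 9 fragments. By fold the peak ranked 63 of 28061 in replicate 1 and 359 of 62093 in replicate 2. By the fold of its lower replicate, the region ranked 113 of the 10921 regions found in both libraries, above 99.0% of them. It was also wide, at 598 bp in replicate 1 and 676 bp in replicate 2, against list medians of 145 and 193 bp. No other annotated gene overlapped it.

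The weaker region, at chr9:69249915-69249942, was an overlap of 28 bp between peaks of 118 bp and 158 bp. It lay 597 kb from the upstream end, 81.2% of the way along the gene. Its fold was 4.16 in replicate 1 and 3.04 in replicate 2, with 5 and 6 fragments at the summits and −log10 q values of 2.003 and 1.164. The summits were 181 bp apart, and by the fold of its lower replicate only 0.714% of all shared regions ranked below it. This region was lost under each stricter rule tried: 50% of each peak shared, summits within 150 bp, a replicate 2 list cut to the length of the replicate 1 list, a minimum fold of 5, and a minimum −log10 q of 5. The stronger region was kept by all 5. A further replicate 2 peak with a fold of 3.53 lay 305 bp from the replicate 1 peak of the weaker region and did not meet it.

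**Figure D1:**
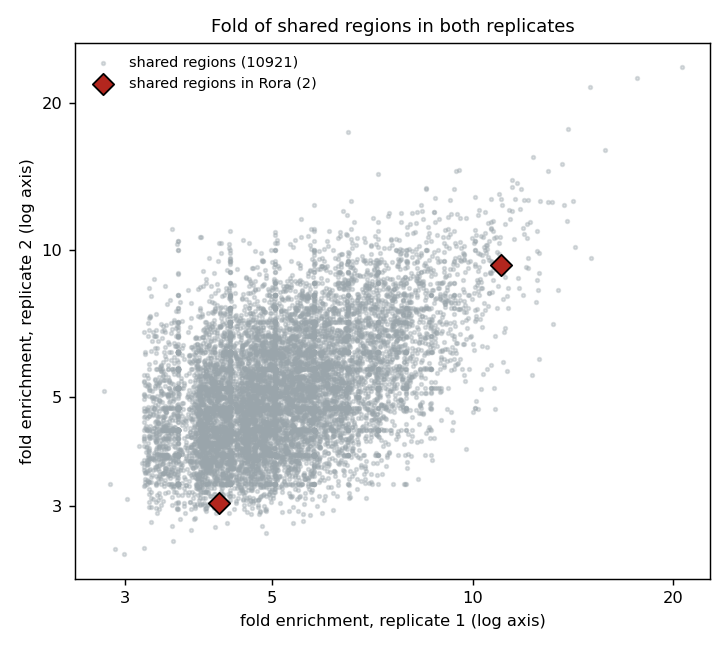
Fold enrichment of every region found in both libraries, replicate 1 against replicate 2, on log axes; grey points are the 10921 shared regions and red diamonds the 2 in *Rora*. One diamond lies near the top of the cloud at folds of 11.03 and 9.34, the other at its lower edge at 4.16 and 3.04.

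All 10 replicate 1 peaks of the *Rora* window lay inside the gene, and neither 100 kb flank held one. Their fold ranged from 3.60 to 11.03 with a median of 4.16, and their length from 94 to 598 bp. Of the 10, 8 rested on 5 or fewer fragments, as did 44.5% of the whole list, and the median fold of that list was 4.33. In replicate 2, 30 peaks lay inside the gene, 3 in the upstream flank and 5 in the downstream flank. Inside the gene, fold ranged from 3.04 to 9.34 with a median of 4.16, and 26 of the 30 had 10 or fewer fragments, as did 74.1% of the whole list, whose median fold was 4.12. The median *Rora* fold was thus a little below that of the list in replicate 1 and a little above it in replicate 2, and the region at 446 kb had the highest values in the gene.

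The peaks were spread along the whole of *Rora*. With the gene cut into 5 equal stretches from its upstream end, replicate 1 had 1, 1, 3, 3 and 2 peaks and replicate 2 had 4, 6, 7, 6 and 7. The longest stretch of the gene without a peak was 189 kb in replicate 1, from 37.5 to 226 kb, and 65.7 kb in replicate 2, from 447 to 513 kb. The replicate 2 gap opened directly downstream of the strong shared region. The median distance between neighbouring summits was 69.9 kb in replicate 1 and 16.0 kb in replicate 2.

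**Figure D2:**
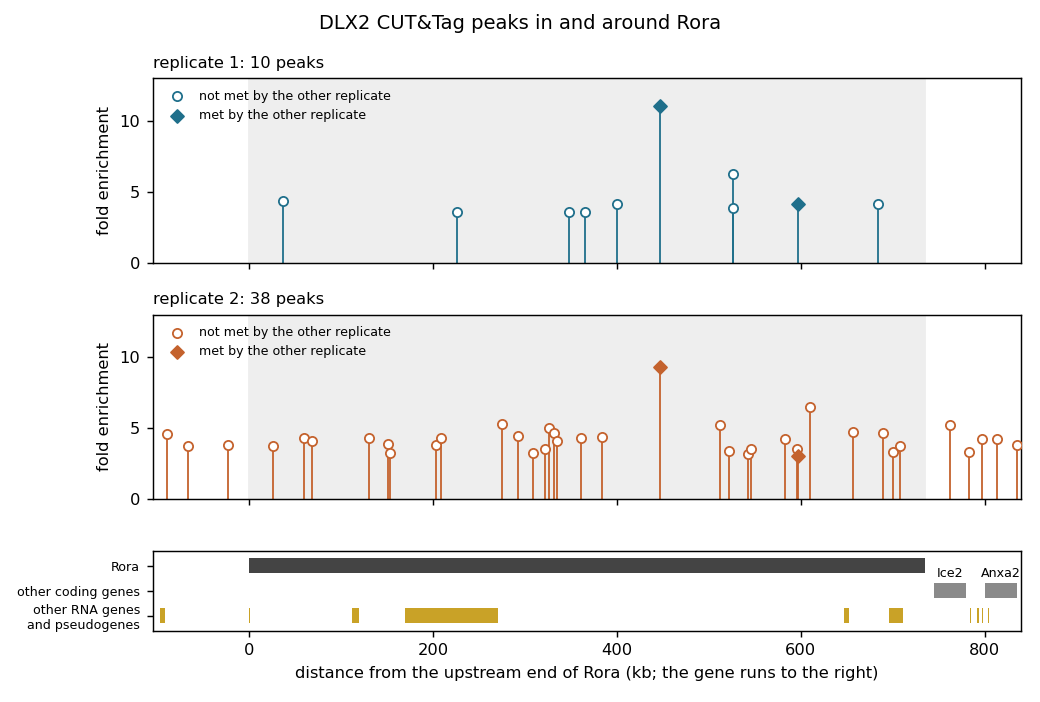
Peaks along *Rora* and its 100 kb flanks, with fold enrichment on the vertical axis and distance from the upstream end of the gene in kb on the horizontal axis; grey shading marks the gene, filled diamonds mark peaks met by the other replicate, and bars below show annotated genes. The peak at 446 kb is the highest in both libraries, at folds of 11.03 and 9.34, and all 10 replicate 1 peaks fall inside the gene.

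Among the *Rora* peaks that the other replicate did not meet, few stood out. In replicate 1 the highest had a fold of 6.28 on 9 fragments and lay 526 kb along the gene, 4.05 kb from the nearest replicate 2 peak. The next had folds of 4.33 at 37.4 kb and 4.16 at both 400 kb and 683 kb, each on 5 fragments. In replicate 2 the highest had a fold of 6.52 on 14 fragments, 609 kb along the gene and 12.7 kb from the nearest replicate 1 peak. It was followed by a peak with a fold of 5.26 at 275 kb, and by peaks with a fold of 5.24 at 513 kb and, in *Ice2* of the downstream flank, at 762 kb. Of the 8 unmet replicate 1 peaks, 4 had a replicate 2 peak within 6 kb, and the whole-list share is not given here. These 4 include neighbours at 526 and 527 kb, which lay 4.05 and 4.27 kb from the same replicate 2 peak. The median distance of the 8 to a replicate 2 peak was 8.43 kb. It was 8.07 kb for all 17146 unmet replicate 1 peaks on chromosomes 1 to 19, X and Y. For the 36 unmet replicate 2 peaks of the window the median was 23.4 kb, against 18.9 kb for all 51373.

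Some of these peaks lie in other genes as well and cannot be given to *Rora* alone. The lncRNA gene *Gm31262*, nested in *Rora*, held 1 replicate 1 peak and 2 replicate 2 peaks, and *Gm15511* near the downstream end held 0 and 2. The nested lncRNA genes *9530091C08Rik* and *Gm46153* held none in either replicate. In the downstream flank, *Ice2*, which codes for a subunit of the little elongation complex of RNA polymerase II, held 1 replicate 2 peak. *Anxa2*, which codes for the membrane-binding protein annexin A2, held 2. None of these peaks belonged to a shared region.

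Inside *Rora* the density was 1.36 peaks per 100 kb in replicate 1 (exact 95% Poisson interval 0.653 to 2.50) and 4.08 in replicate 2 (interval 2.75 to 5.83), a mean of 2.72 ± 1.92 (SD, n = 2). These intervals, like those below, cover counting error only. All protein-coding gene bodies together had 1.39 peaks per 100 kb in replicate 1 and 3.17 in replicate 2, so the *Rora* density was 0.982 and 1.29 times this level. The replicate 2 list as a whole had 2.21 times as many peaks as that of replicate 1, and in *Rora* it had 3 times as many. With the replicate 2 list cut to the length of the other, its *Rora* density was 1.497 per 100 kb, inside the interval of replicate 1.

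Shared regions made up a small part of the *Rora* peaks. The gene held 0.272 shared regions per 100 kb (interval 0.0330 to 0.983) against 0.493 over all coding gene bodies, a value inside that interval. Of the replicate 1 peaks in *Rora*, 2 of 10 met a replicate 2 peak, or 20% (Wilson 95% interval 5.67 to 51.0%), against 38.9% of the whole list. Of the 38 replicate 2 peaks of the window, 2 met a replicate 1 peak, or 5.26% (interval 1.46 to 17.3%), against 17.2% of the whole list. The whole-list value lay inside the *Rora* interval in both cases, close to its upper end in replicate 2. Over the 189 coding genes with a body within 1.5 times the length of *Rora*, 41.0% of replicate 1 and 20.9% of replicate 2 peaks were met. This replicate 2 share lay above the window interval. It was just inside that of the *Rora* body, where 2 of 30 peaks were met, or 6.67% (interval 1.85 to 21.3%). At like depth in replicate 1, 1 of 8 *Rora* peaks with 5 or fewer fragments was met, against 20.7% of all such peaks. The 1 *Rora* peak with 6 to 14 fragments was not met, against 52.4% met in the list, and the 1 with 15 or more was, against 98.3%. In replicate 2, 1 of 33 peaks of the window with 10 or fewer fragments was met, against 9.19% of all such peaks. None of the 4 with 11 to 24 fragments was met, against 38.7% in the list, and the 1 with 25 or more was, against 89.8%.

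*Rora* was then set beside the 189 protein-coding genes whose body is within 1.5 times its length, between 490 and 1100 kb. Its peak density was above that of 71.4% of them in replicate 1, where their median was 0.696 per 100 kb, and of 84.7% in replicate 2, where it was 1.17. Its 2 shared regions equalled their median of 2, with 89 genes lower, 33 equal and 67 higher. Of these genes, 77.8% held a shared region, so having one is what a gene of this length usually shows. The 3 genes of this class whose densities in the replicates were nearest to those of *Rora* were *Ptprg*, *Alk* and *Gm38667*. *Ptprg* and *Alk* code for a receptor tyrosine phosphatase and a receptor tyrosine kinase. *Ptprg* had 10 and 27 peaks and 5 shared regions, *Alk* 10 and 26 peaks and 4 shared regions, and *Gm38667* 12 and 41 peaks and 5 shared regions. Each of the 3 held more shared regions than *Rora*, *Ptprg* and *Alk* with the same number of replicate 1 peaks and fewer in replicate 2, and *Gm38667* with more of both; with 3 genes this is a description only.

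**Figure D3:**
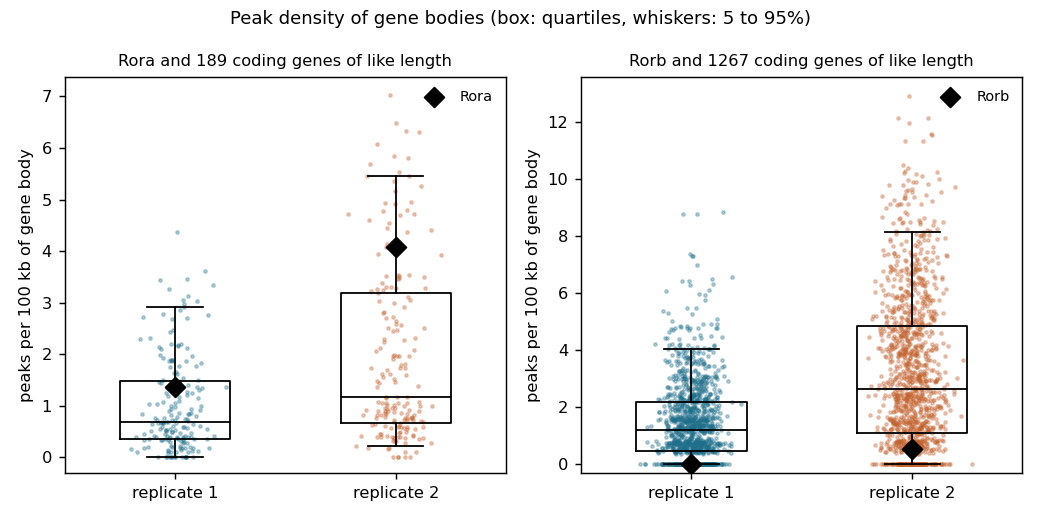
Peaks per 100 kb of gene body in each replicate for *Rora* with 189 coding genes of like length (left) and *Rorb* with 1267 (right); points are genes, boxes give the quartiles, whiskers the 5 to 95% range and black diamonds the ROR genes. *Rora* lies above the median of its class in both replicates, at 1.36 and 4.08, and *Rorb* below it, at 0 and 0.554.

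*Rorb* held almost no peaks. Replicate 1 had no peak in the gene body, a density of 0 per 100 kb with an upper limit of 2.04. Replicate 2 had 1, or 0.554 per 100 kb (interval 0.0140 to 3.09), with a fold of 3.81 on 7 fragments, 133 kb from the upstream end. The mean density was 0.277 ± 0.392 (SD, n = 2). Against all coding gene bodies together, the replicate 2 density was 0.175 times the pooled level. That level, 3.17, lay just above the *Rorb* interval, while the replicate 1 level of 1.39 lay inside it. The *Rora* and *Rorb* intervals overlapped in both replicates, in replicate 2 only between 2.75 and 3.09. Such overlap does not show that the densities are alike, and the difference between the genes was not tested.

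The flanks of *Rorb* held the rest of its peaks, and none was met by the other replicate. Both replicate 1 peaks lay downstream of the gene, one with a fold of 4.28 on 5 fragments 25.7 kb away and one with a fold of 3.60 on 4 fragments 91.8 kb away, inside *Trpm6*. *Trpm6*, which codes for a magnesium channel, also held 2 of the replicate 2 peaks, with folds of 4.28 and 3.33. The highest *Rorb* peak had a fold of 7.14 in replicate 2, with 14 fragments and a −log10 q of 7.84, and lay 59.2 kb upstream in a stretch without an annotated gene. Its nearest replicate 1 peak was 173 kb away. Of the replicate 2 peaks with 11 to 24 fragments, 38.7% met a replicate 1 peak. The closest pair across the libraries, 22.6 and 25.7 kb downstream of the gene, was 2.89 kb apart. With 0 of 2 replicate 1 peaks met, the Wilson interval ran from 0 to 65.8% and shows little, and 38.9% of the whole list was met. In replicate 2, 0 of the 6 peaks of the window were met (interval 0 to 39.0%), against 17.2% of the whole list. Of these 6 peaks, 5 had 10 or fewer fragments, and 9.19% of all such replicate 2 peaks were met.

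**Figure D4:**
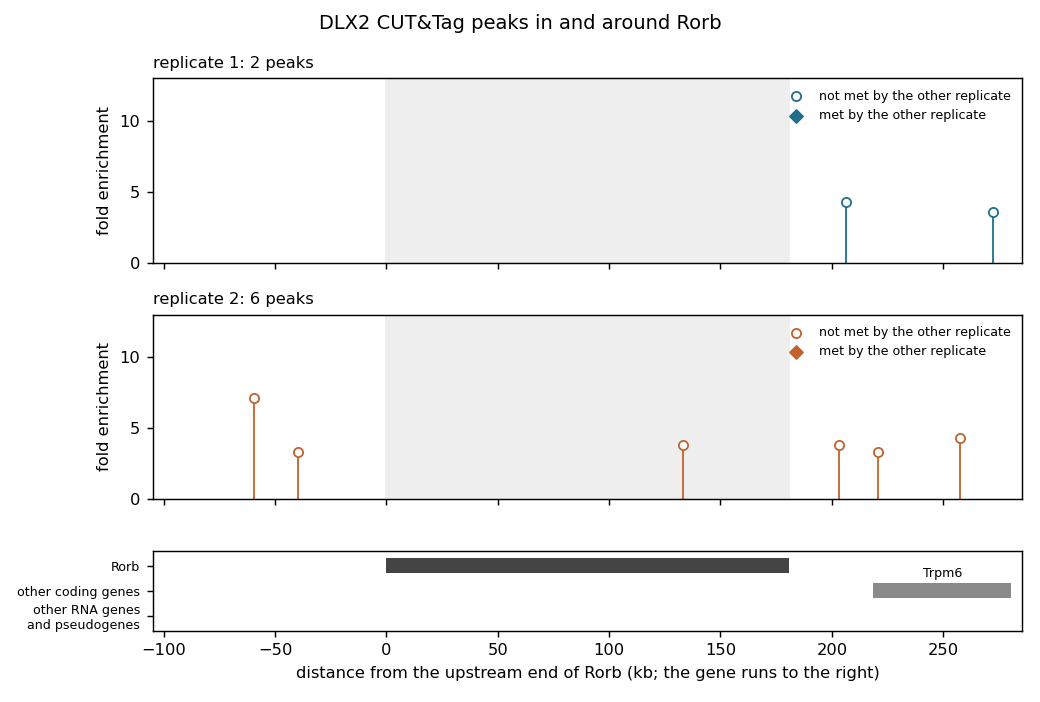
Peaks along *Rorb* and its 100 kb flanks, drawn as for *Rora* and on the same vertical scale, with the gene running to the right. The gene body holds a lone peak, in replicate 2, and no peak in either library is marked as met by the other.

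Shared regions were far from *Rorb*. The nearest downstream lay 330 kb away inside *Ostf1*, with folds of 4.90 and 8.89, and the nearest upstream lay 1976 kb away, with folds of 4.33 and 4.76. For *Rora*, the nearest outside the gene lay 183 kb upstream, with folds of 6.78 and 5.73, and 186 kb downstream, with folds of 5.18 and 6.08. Both therefore fell outside the 100 kb limit and inside a limit of 200 kb, under which *Rora* had 4 shared regions. At the limit itself, the outermost *Rora* peaks inside it were replicate 2 peaks 89.1 kb upstream and 99.6 kb downstream, with folds of 4.59 and 3.81. The first outside were at 183 kb upstream in both replicates, and downstream at 114 kb in replicate 2, with a fold of 3.81, and at 186 kb in replicate 1. For *Rorb*, the outermost inside were 91.8 kb downstream in replicate 1 and, in replicate 2, 76.6 kb downstream and 59.2 kb upstream. The first outside lay downstream at 330 kb in replicate 1 and 329 kb in replicate 2, and upstream at 233 kb in replicate 1 and 151 kb in replicate 2.

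*Rorb* had fewer peaks than most genes of its length. Among the 1267 coding genes with a body within 1.5 times that of *Rorb*, 78.4% had a higher replicate 1 density and 85.6% a higher replicate 2 density. The other 21.6% had no replicate 1 peak, as *Rorb* had none. Counts as low as those of *Rorb* in both replicates, with 0 in replicate 1 and at most 1 in replicate 2, were held by 163 of the 1267, or 12.9%, of which 98 had no peak in either. A shared region lay inside 50.4% of the 1267. Among the nearest in density were *Htr1f* and *Abcb1a*, neither of which had a replicate 1 peak or a shared region, and each of which had 1 replicate 2 peak. They are among the 65 genes of this class with exactly those counts and were placed first by their length alone.

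The wider ROR pathway was described over 17 genes in 4 lists, by shared regions inside each gene or within 100 kb. Of the 17, 11 had at least 1, or 64.7%, against 60.2% of all 21775 protein-coding genes. Inside the gene itself, 6 of the 17 had a shared region, against 14.6% of all coding genes; several of the 17 are long genes, and length was not taken into account. The median number in the windows was 2, against 1 over all coding genes. Which other genes overlap or lie nearer to these regions is not given here, so a region cannot be assigned to the related gene alone. With a minimum −log10 q of 5, 1 of the 17 genes had a shared region, against 14.9% of all coding genes.

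Of the repressor genes *Nr1d1* and *Nr1d2*, whose products share a response element with *Rora* and *Rorb*, *Nr1d1* had a shared region nearby and neither had one inside. That of *Nr1d1* lay 4.30 kb away with folds of 5.91 and 5.85, and *Nr1d2* had 0. *Nr1d2* held 1 peak in each replicate, which did not meet.

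Among the cofactors, 3 of 5 (60%) had a shared region in their window, against 60.2% of all coding genes. *Ncoa2*, a coactivator, had 4, with 2 inside the gene. *Ppargc1a*, a coactivator whose gene of 662 kb is nearly as long as *Rora*, had 2, with 1 inside the gene. Its body held only 1 and 3 peaks, and the shared region there had folds of 5.04 and 7.56. *Ncor1*, a corepressor, had 2 in its flanks, while *Ncoa1* and *Hr*, the corepressor Hairless, had 0.

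Among the clock genes, 4 of 5 (80%) had a shared region in their window, against 60.2% of all coding genes. *Cry1*, which codes for a repressor, had 4, all in its flanks, and the strongest lay 26.5 kb away with folds of 6.29 and 8.37. *Npas2*, a relative of *Clock* in the activating arm, had 3, of which 2 lay inside the gene, and the strongest had folds of 7.28 and 4.54. *Arntl* (also called Bmal1), the partner of both, had 2, with 1 inside, *Nfil3*, a repressor, had 1 in its flank and *Clock* had 0.

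Genes that RORA activates in Purkinje cells had a shared region in their window in 3 of 5 cases (60%), against 60.2% of all coding genes. *Pcp4*, which codes for a calmodulin-binding protein, had 4, *Pcp2* 3 and *Itpr1*, the calcium channel of the endoplasmic reticulum, 2. The strongest around *Itpr1* lay 53.0 kb from the gene with folds of 9.18 and 6.76. *Slc1a6*, a glutamate transporter, and *Shh*, a secreted signal, had 0.

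**Figure D5:**
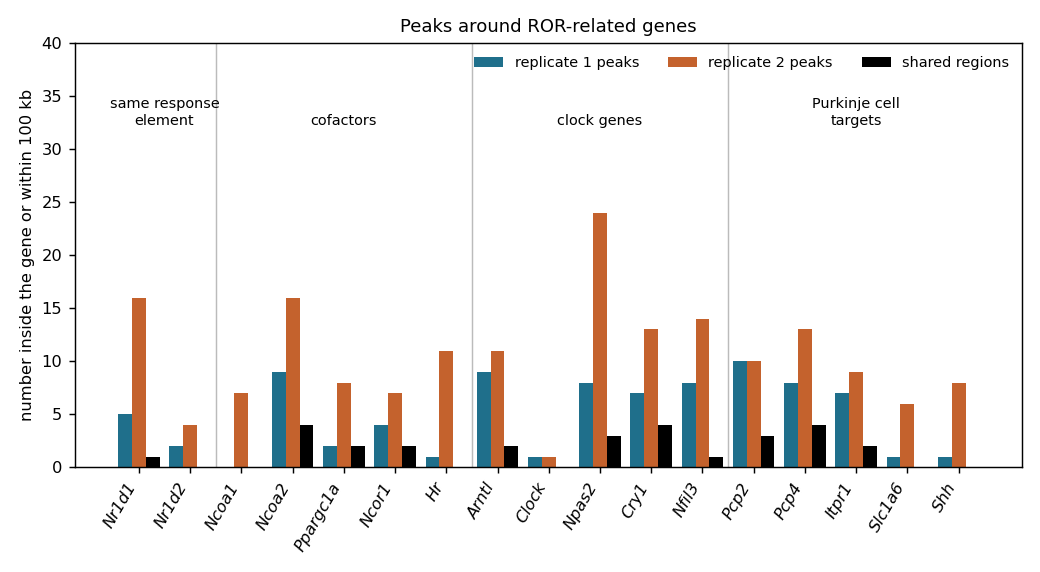
Bars count the peaks of either replicate, and the regions they share, inside each of 17 ROR-related genes or within 100 kb of it, in 4 lists. Shared regions number 0 to 4 per gene and are present for 11 of the 17, while peak numbers reach 10 in replicate 1 and 24 in replicate 2.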

How the data were processed

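The deposited data were peak lists of 2 DLX2 CUT&Tag libraries from E12.5 wildtype maxillary process cells, treated as replicates 1 and 2 in the order of their records. Per the labels, the authors' tools were Trim Galore 0.4.5, Bowtie 1.1.2 and MACS2 2.2.7 on mm10, whereas the study's methods name bowtie2 and another Trim Galore release. The labels also describe sonicated chromatin, and the methods a transposase kit. The peak caller's settings are not given in the sources used here. Peaks were deposited per library, not on pooled reads. The paper reports fewer peaks for each replicate, and fewer common to both, than these lists gave. The counts and shares given here are therefore not on the peak set the paper describes.

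The deposited score was the whole part of 10 times the −log10 q and was not used further. Fold, as deposited, is the authors' ratio of summit signal to local background. The deposited −log10 p and −log10 q are the peak caller's own, and the lowest −log10 q was 1.00 in both lists. Summit offsets were used to match summits.

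Read totals were not used here. Fragments at the summit were inferred from fold, taken as fragments plus 1 over background plus 1, and from p, taken as a Poisson upper tail. A whole number was found for 100% of peaks in each list (tolerance 0.001). The lowest background was 2.84 times as high in replicate 2 (1.10 fragments) as in replicate 1 (0.387). Replicate 2 may thus have been the deeper, but without read totals this was not tested.

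A shared region is the stretch, of 1 bp or more, that lies under peaks of both libraries. Gene extents were RefSeq GRCm38.p6, without genes listed before base 3000000 of chromosomes 1 to 19 and X, which left 21775 coding genes. Strand and start sites came from RefSeq promoter sequences. Both members matched by symbol, as did all 17 related genes; some genes that the naming rule takes are not reported here. Shares carry Wilson and counts exact Poisson intervals at 95%. With 1 group and no control no test between groups was made, and the libraries may share tissue or preparation, so SDs over 2 may be technical. The text names the members, every shared region near them, up to 3 unshared peaks of highest fold per gene and replicate with ties, the 4 related lists, and the 3 coding genes of like length nearest in summed density difference. Members, lists and motifs were chosen with earlier results of these data known. Overlap and fragment inference were tested on simulated data, where 100% of 500 planted overlaps were found. Scripts ran on Python 3.11.15 with scipy 1.17.1, pandas 2.3.3, statsmodels 0.14.6, matplotlib 3.10.9 and numpy 2.4.6.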

Additional observations from a re-analysis of the deposited data

How the results depend on the processing

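Of 45 alternative values, 28 stayed within the replicate SD, the interval or 1.5 times the main value, and 17 moved. Some of the 28 could not have moved, so their number does not measure stability. With 2 replicates, the density left by dropping either always lies within the SD of the mean. The *Rorb* counts of 0 shared regions and 0 peaks met cannot fall under a stricter rule. The body density of *Rora*, 2.72 peaks per 100 kb, was 0.204 with a minimum −log10 q of 5 and 0.476 with a minimum fold of 5, and ran from 1.36 to 4.08 with either replicate left out. Its 2 shared regions became 1 under either minimum, with 50% of each peak shared, with summits within 150 bp and with the replicate 2 list cut to equal length, and 4 with flanks of 200 kb. Under the minimum −log10 q, 100% of its replicate 1 peaks were met, which is 1 of 1. Without a replicate no region can be shared, and the counts are then the peaks of the other, 10 to 38 for *Rora* and 2 to 6 for *Rorb*. The *Rorb* body density, 0.277, was 1.05 with the flanks included and 0 to 0.554 with either replicate left out. For *Rorb*, the share of replicate 1 peaks met could not be computed under either minimum or in the gene body, where no peak was left. Of the 17 related genes, an outcome whose alternatives were added after the data were seen, 11 had a shared region, against 60.2% of all coding genes. The count was 1 with the minimum −log10 q (14.9% of all coding genes), 5 with the minimum fold (28.6%) and 6 inside the gene (14.6%). With the replicate 2 list cut to equal length it stayed at 11 (51.6%). A filter can only lower such counts or leave them as they are. Most peaks rested on 4 to 10 fragments, and the effect of this depth on the number of shared regions was not tested.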
